A study of Oryzias latipes with 18 samples.

Results

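The AP-2 genes encode transcription factors (TFs) that are best known from the neural crest, the migratory cells at the edge of the neural plate that give rise to pigment cells, craniofacial cartilage and peripheral neurons. All genes assigned to the AP-2 family in the study's list of medaka TF genes were taken, which gave 6 of 1646 TF genes: tfap2a, tfap2b, tfap2c, tfap2d, tfap2e and IGDB17918. Around each gene, the accessible chromatin elements were collected whose midpoint lay inside the gene or within 50 kb of its transcription start site (TSS). These were 174 different elements of 149539 in the whole list. The counts of the 6 genes add up to 200, because tfap2b and tfap2d are neighbors and 26 elements lie in the windows of both.

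ATAC-seq, in which the Tn5 transposase cuts and tags open DNA, was run on whole medaka embryos from a cross of d-rR-Tg(olvas-GFP) with Qurt fish, kept at 28 °C. There were 9 stages (11, 15, 19, 25, 29, 32, 36, 38 and 40) with 2 replicates each, 18 libraries in all, with no treatment or mutant. The authors merged the replicates of a stage, called peaks and merged these over the stages into a single list of elements. Each element has a score, taken to be −log10 of the MACS2 q value, and a number of merged peaks, which is large where peaks were called at many stages or where several peaks of a stage were joined. The list holds no value per stage, per replicate or per cell type, and the depth of the libraries is unknown from it. From this list no difference between stages can be tested, and read coverage per library was not used here. In the list, the neural crest, which is a small part of a whole embryo, could not be told apart from the other tissues. The label of the family could not be checked against neural crest marker expression. What follows describes positions, scores and merged peaks, without tests.

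AP-2 proteins carry a helix-span-helix domain and bind as dimers to GC-rich palindromic DNA. In zebrafish, tfap2a and tfap2c act together to induce the neural crest, and loss of tfap2a reduces pigment cells and jaw cartilage. Zebrafish tfap2e acts beside tfap2a in melanophores, and in mice Tfap2e is known from the olfactory system. TFAP2B mutations cause Char syndrome in humans, with defects of the face and the ductus arteriosus, and in mice Tfap2d is required in the midbrain. IGDB17918 is placed in the family by the TF list, and the matched RefSeq gene LOC101166751 carries no AP-2 name, so no role is given for it. The other members carry a tfap2 name in RefSeq, except for tfap2c, which RefSeq lists as LOC101167699 and which took its name from the study's gene tables.

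The 6 genes lie on 5 chromosomes of the assembly ASM223467v1 and are all compact. tfap2a spans 7.94 kb (chr20:13119346-13127289, minus strand), tfap2c 8.19 kb (chr5:12732593-12740779, minus strand) and tfap2e 9.80 kb (chr11:19987838-19997632, plus strand). tfap2b spans 9.60 kb (chr24:18914846-18924446) and tfap2d 12.2 kb (chr24:18941378-18953612), both on the minus strand, and IGDB17918 is the shortest with 6.33 kb (chr19:14110552-14116885, minus strand). A window of 50 kb on each side is thus mostly outside the gene.

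tfap2a had the most elements of the family. Its 50 elements placed it 48th among all TF genes, and 96.8% of TF genes had fewer. tfap2e had 39 elements, tfap2d 33, tfap2c 32 and tfap2b 29, and the shares of TF genes with fewer elements were 86.6%, 74.8%, 72.3% and 62.6%. IGDB17918 had 17, and only 23.4% of TF genes had fewer. The median of the family was 32.5 elements (mean 33.3 ± 10.9, SD over 6 genes), beside a median of 25 over all TF genes (quartiles 17 and 33). All TF genes include 578 C2H2 zinc finger genes, whose median was 19.5. The 6 counts spanned from the lower quartile of TF genes to well above their upper quartile, below the highest count of 106. The difference of 7.5 elements between the medians also shrank to 1.5 when elements made from a single peak were left out, with medians of 20.5 and 19, and to 2.5 in a window of 25 kb.

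**Figure D1:**
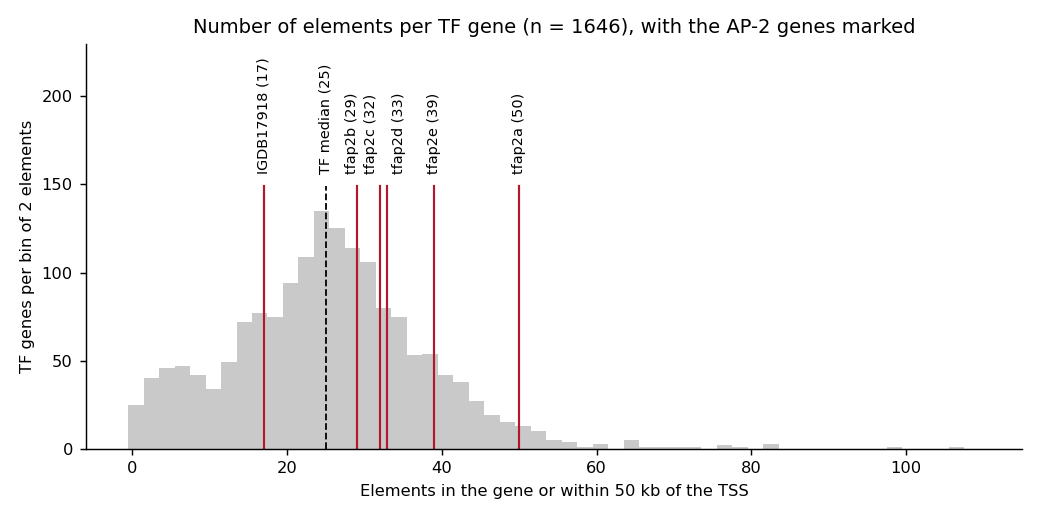
Histogram of the number of elements inside or within 50 kb of the TSS for all 1646 TF genes (x axis, elements; y axis, genes per bin of 2 elements). Red lines mark the 6 AP-2 genes with their counts and the dashed line the median of 25 of all TF genes. Only IGDB17918 with 17 elements lies below that median, and tfap2a with 50 lies in the upper tail.

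Relative to all TF genes, the AP-2 genes had the largest ratio of elements between 1 and 5 kb from the TSS. Within 1 kb of the TSS an AP-2 gene had 1.5 elements on average and a TF gene 1.41. Between 1 and 5 kb the means were 4.83 and 2.08, with a median of 4.5 for the AP-2 genes (range 2 to 9) and of 2 for all TF genes (quartiles 1 and 3). tfap2a had 9 elements in this range, a count that 99.9% of TF genes did not reach, tfap2d had 6, tfap2e 5, tfap2c 4, tfap2b 3 and IGDB17918 2. Most of the 9 elements of tfap2a lay less than 500 bp from another of them. They include single-peak elements with scores of only 10.4 to 16.2. The counts from 1 to 5 kb were not repeated with such close elements merged. Between 5 and 10 kb the means were the same, 2.50 and 2.50, from 10 to 25 kb they were 8.83 and 7.18, and from 25 to 50 kb, where the difference in elements per gene was largest, 15.7 and 11.3. The median score of the elements between 1 and 5 kb was 28.9 around AP-2 genes and 35.2 around all TF genes. A score of 100 or more was reached by 6 of these 29 elements (20.7%), beside 17.9% around TF genes.

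**Figure D2:**
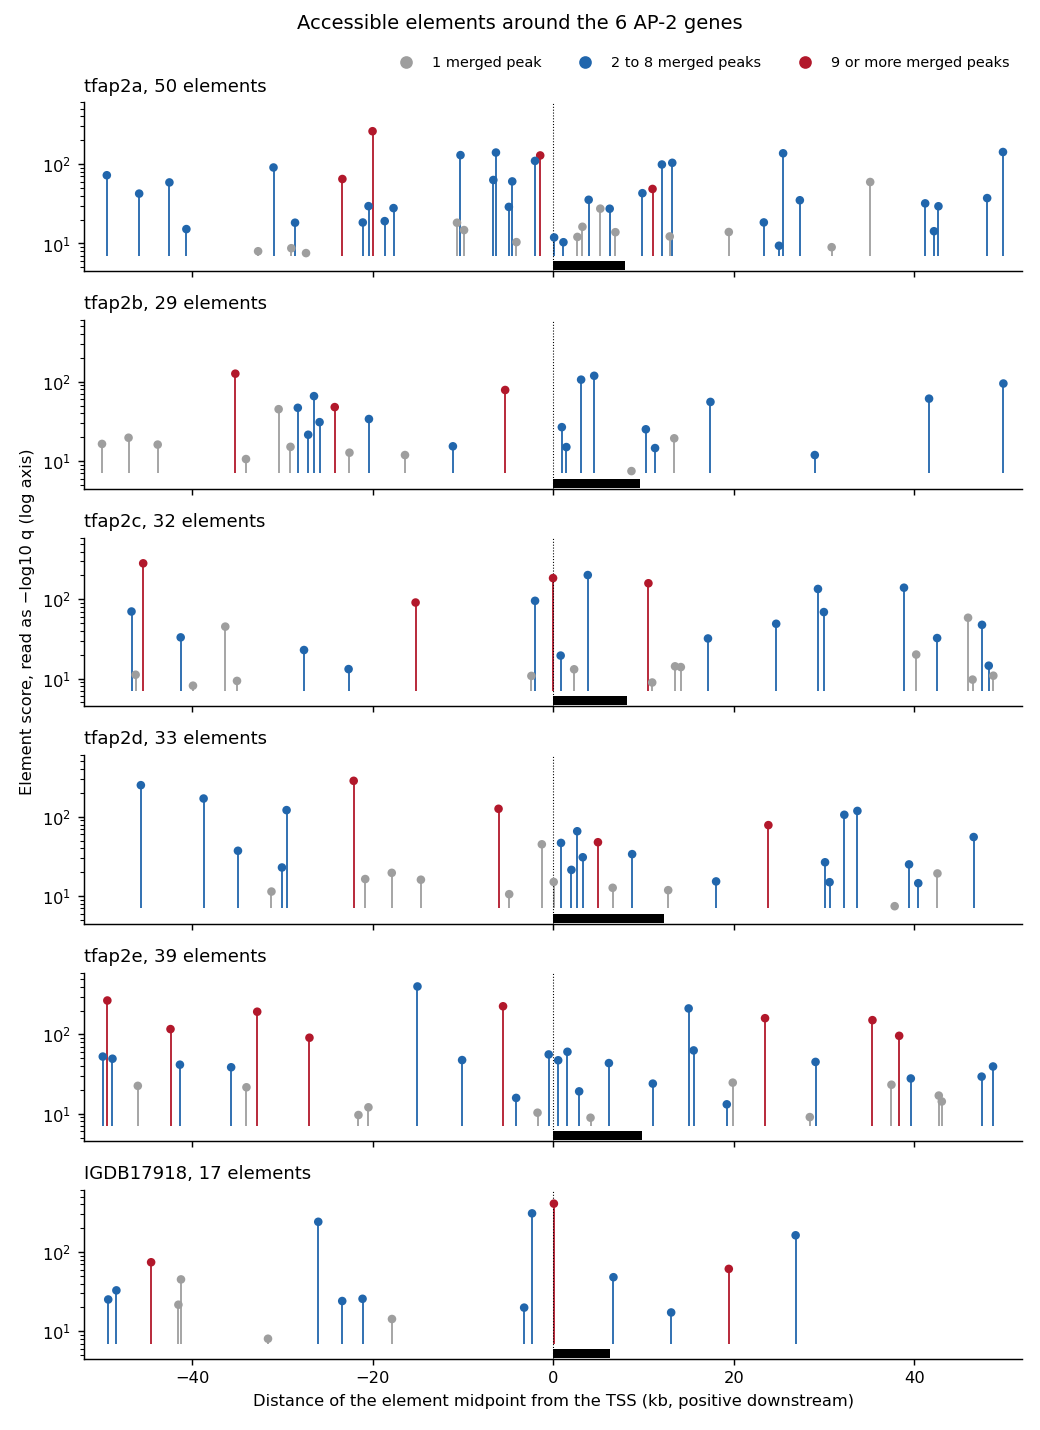
Elements in the window of each AP-2 gene by distance of the midpoint from the TSS (x axis, kb, positive downstream of the TSS) and score (y axis, −log10 q, log scale). Black bars are the genes, and colors give the number of merged peaks. The highest score lies upstream of the TSS in the 5 named genes, from 126 (tfap2b) to 402 (tfap2e), and on the TSS in IGDB17918 (407). The share of TF genes with the highest score upstream was not computed.

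At the TSS itself the 6 genes fell into different types. An element covered the TSS in 4 of the 6, beside 63.4% of all TF genes. The TSS element of IGDB17918 (chr19:14116611-14117003) had a score of 407 and 9 merged peaks, and that of tfap2c (chr5:12740612-12740972) a score of 185 and 9 merged peaks. The elements over the TSSs of tfap2d (chr24:18953441-18953666, score 15.1, 1 peak) and tfap2a (chr20:13127076-13127291, score 11.9, 2 peaks) were weak, below the median score of 30.8 over all elements. No element covered the TSS of tfap2b, whose nearest element lay 0.961 kb inside the gene with a score of 26.7 and 4 merged peaks, or of tfap2e, whose nearest element lay 0.496 kb upstream with a score of 55.9 and 7 merged peaks. An element of at least 9 merged peaks, as many as there are stages, covered 2 of 6 TSSs, beside 37.7% of TF genes. With 6 genes, neither share can be set apart from its background.

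Part of this depended on where a gene was taken to begin. RefSeq places the start of tfap2a 1496 bp and that of tfap2c 2039 bp further upstream than the TF list, while the other starts differ by 6 to 367 bp. The RefSeq start of tfap2a falls in an element of score 129 and 9 merged peaks (chr20:13128570-13128881), against 11.9 at the TSS of the TF list. The RefSeq start of tfap2c falls in an element of score 95.6 and 6 merged peaks (chr5:12742682-12742892). In both genes each start thus lay in an element, and the score was higher at the upstream start of tfap2a and at the downstream start of tfap2c. With RefSeq starts the number of covered starts was 3 of 6, since tfap2d, at 367 bp, lost its weak element. The share of TF genes with a covered RefSeq start was not computed. All 6 genes had an element within 1 kb of the TSS, as did 84.1% of TF genes.

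**Figure D3:**
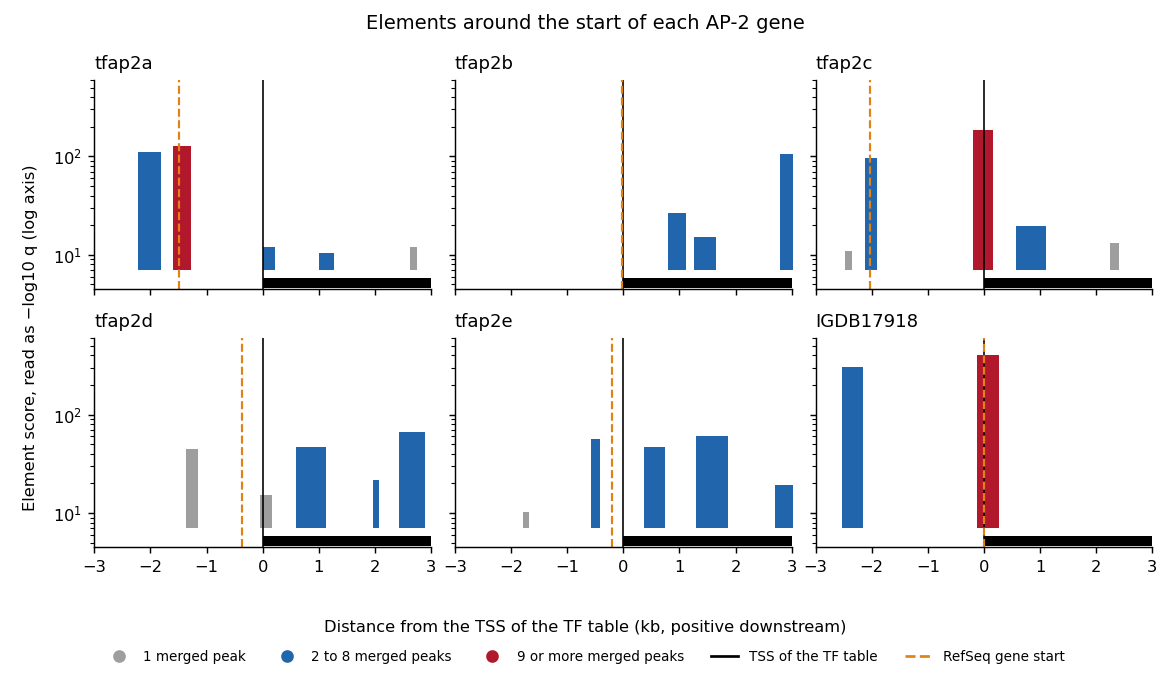
Elements within 3 kb of the start of each AP-2 gene (x axis, distance from the TSS of the TF list in kb, positive downstream; y axis, score as −log10 q, log scale). The width of a bar is that of the element and the color gives its merged peaks; the solid line is the TSS of the TF list and the dashed line the RefSeq start. The RefSeq starts of tfap2a and tfap2c lie 1496 and 2039 bp upstream and inside elements of score 129 and 95.6.

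The strongest element lay within 1 kb of the TSS in 1 of the 6 genes, IGDB17918, beside 18.3% of TF genes. In the others it lay between 15.0 kb (tfap2e) and 45.4 kb (tfap2c) from the TSS, upstream in all 5. How often the strongest element lies upstream in other TF genes was not computed, so this is not shown to be particular to the family. tfap2b and tfap2d are also neighbors with overlapping windows. A score does not say which gene an element serves, and an element inside a neighbor may belong to that neighbor.

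In tfap2a, 8 elements lay in the gene, 25 upstream and 17 downstream. Within the bounds of the TF list, the elements inside this central neural crest gene were weak, with scores from 10.4 to 35.5. The longer RefSeq gene also holds the element of score 129 at its start. The strongest element of the window (chr20:13147103-13147505, score 260, 9 merged peaks) lay 20.0 kb upstream, inside mak, a kinase gene known from photoreceptor cilia. The next were 142 (6 peaks, 49.8 kb downstream), 140 (8 peaks, 6.34 kb upstream, at LOC101162485), 137 (3 peaks, 25.5 kb downstream) and 130 (3 peaks, 10.3 kb upstream, inside mak). Beside the element at the RefSeq start, elements of 9 merged peaks lay 23.4 kb upstream with a score of 65.0 and 11.0 kb downstream with a score of 48.7. The side of tfap2a that faces ofcc1 is free of other protein-coding genes for 87.5 kb by the RefSeq gene ends and held 29 elements, or 33.1 per 100 kb, beside 19.7 per 100 kb over the 24 chromosomes. Of these 29 elements 12 lay beyond the window, the strongest with a score of 87.9 and 9 merged peaks at 56.3 kb from the TSS. In the 5 kb behind the gene's 3′ end lay 4 elements with scores of 12.3 to 99.0, and 3 of them had 7 to 9 merged peaks.

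In tfap2c, the partner of tfap2a in zebrafish, 3 elements lay in the gene, 13 upstream and 16 downstream. An element inside the gene at 3.84 kb (chr5:12736773-12737115) had a score of 202 from only 3 merged peaks, next to the TSS element with 185 from 9. The strongest element of the window (score 284, 9 peaks) lay 45.4 kb upstream, at the end of rtf2, a gene of DNA replication termination. An element of 9 merged peaks and a score of 91.0 lay 15.2 kb upstream. Downstream of the gene, an element of score 159 and 9 merged peaks (chr5:12730087-12730363) lay 10.6 kb from the TSS and an element of 140 and 8 peaks at 38.9 kb. The stretch between tfap2c and its 3′ neighbor LOC101168777 is 109.9 kb long and held 31 elements, or 28.2 per 100 kb, while the 16.3 kb towards rtf2 held 2. The strongest of the 15 elements beyond the window on the 3′ side (score 163, 5 peaks) lay 54.3 kb from the TSS. Single peaks gave rise to 40.6% of the tfap2c elements (95% Wilson interval 25.5 to 57.7%, for counting error only), the highest share of the 6 genes, but the interval includes the 25.6% of all TF elements.

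tfap2b and tfap2d follow each other on chromosome 24 in the same orientation. Their TSSs are 29.2 kb apart, with the 3′ end of tfap2d 16.9 kb upstream of the TSS of tfap2b, and the same gene order is known from the human genome. The interval between their outer protein-coding neighbors, LOC111947105 and LOC111947119, is 224.3 kb long and held 46 elements, or 20.5 per 100 kb, near the 19.7 of the genome. In this interval the 2 genes have no protein-coding neighbor but each other, and 36 of the 46 elements lay in one of their windows. The 3 elements between the genes had scores of 78.6 (9 merged peaks, chr24:18929667-18929865), 15.3 (2 peaks) and 11.9 (1 peak).

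Upstream of tfap2d lay the widest element of the pair (chr24:18975276-18976159), of 884 bp and 12 merged peaks, with a score of 284 at 22.1 kb from the TSS. With 9 stages, 12 merged peaks mean that several peaks of a stage were joined in it. Further upstream, elements of score 122 (7 peaks, 29.5 kb), 170 (3 peaks, 38.7 kb) and 251 (5 peaks, 45.7 kb) followed, all of them over 5 kb from any gene. None of these 4 elements lay in the window of tfap2b. That window did hold the element 6.05 kb upstream of tfap2d (chr24:18959498-18959833), which had a score of 126 and 9 merged peaks. This was the highest score in the window of tfap2b, 35.2 kb from its TSS and with the whole of tfap2d in between.

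In the gene tfap2b itself, elements at 4.55 kb (chr24:18919729-18920072, score 119, 8 peaks) and 3.10 kb (score 106, 4 peaks) stood out from 3 others with scores of 7.47 to 26.7. The next in score lay 49.9 kb downstream (94.9, 4 peaks). In tfap2d, 8 elements lay in the gene with scores between 12.7 and 65.8, and the element with the most merged peaks (9, score 47.9) lay 4.96 kb from the TSS. Among the elements closest to each gene, the highest scores of tfap2b thus lay inside the gene and those of tfap2d upstream. When each element was counted only for the closer TSS of the pair, tfap2b kept 14 of its 29 elements and tfap2d 22 of its 33.

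**Figure D4:**
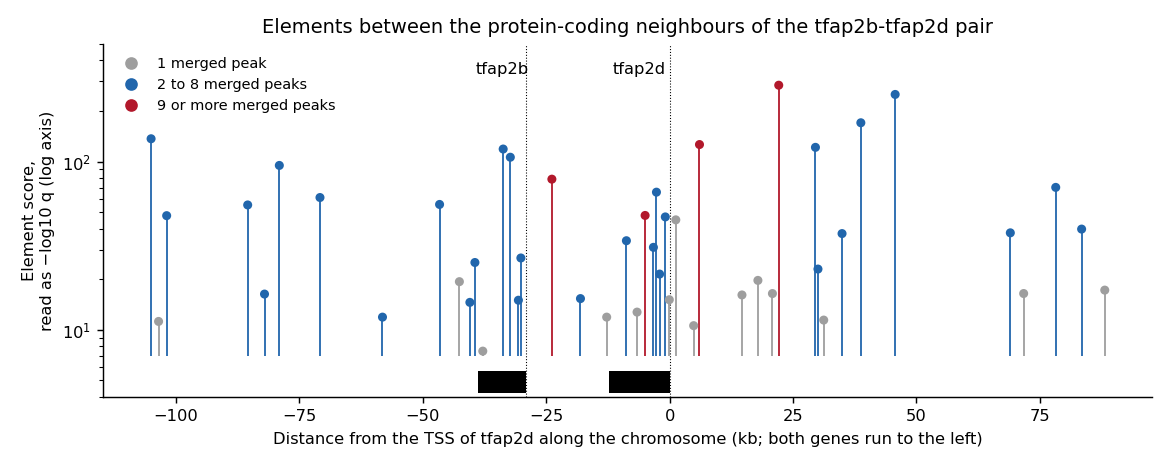
Elements between the protein-coding neighbors of the tfap2b-tfap2d pair by distance along the chromosome from the TSS of tfap2d (x axis, kb) and score (y axis, −log10 q, log scale). Black bars are the genes, which both run to the left, and dotted lines their TSSs. Of the 46 elements, those with the highest scores, 284 and 251, lie to the right of tfap2d, and 3 lie between the genes.

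tfap2e lies in a much denser stretch of genes than the other named members. Its window held parts of 9 other protein-coding genes, and ncdn and psmb2 begin or end 1.31 kb and 3.16 kb from it. Of its 39 elements 25 lay inside another gene, 7 were closest to tfap2e itself and none was distal, that is more than 5 kb from any gene. The strongest (chr11:19972554-19973046, score 402, 8 peaks) lay in kiaa0319l. The next 4 lay at or in ppt1 (267, 9 peaks), ncdn (226, 9 peaks), psmb2 (212, 8 peaks) and cap1 (193, 12 peaks). These genes encode a lysosomal thioesterase, neurochondrin, a proteasome subunit and an actin-regulating protein. In the gene tfap2e, 5 elements had scores of 47.2, 60.4, 19.1, 8.90 and 43.5 in order from the TSS, with 5, 7, 2, 1 and 4 merged peaks. The count of tfap2e thus rested mostly on elements closest to its neighbors, and such shares were not computed for other TF genes. Of the 39 elements, 8 (20.5%, interval 10.8 to 35.5%) had 9 or more merged peaks, the highest share of the 6 genes. None of the 8 was inside or closest to tfap2e. They lay at ppt1, ncdn and cap1, in kiaa0319l, at the border of psmb2 and cdca5 (15 peaks, score 160, 23.5 kb) and near c11h1orf216 (11 peaks, score 151, and 9 peaks, score 95.9).

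IGDB17918 also has close neighbors, with kif19 1.94 kb upstream and LOC101159048 0.052 kb downstream, and no element lay in these gaps by its midpoint. Of its 17 elements, 1 lay in the gene and 12 in other genes. After the TSS element, the strongest were 307 (6 peaks, chr19:14119040-14119411) at kif19, a kinesin gene of motile cilia, 2.34 kb away, 240 (6 peaks, 26.0 kb upstream, at LOC105356577 within kif19) and 162 (6 peaks, 26.9 kb downstream). Elements of 9 merged peaks lay at 44.6 kb upstream (score 74.1) and 19.5 kb downstream (score 61.2). In IGDB17918 the strongest element of the window covered the TSS, while in the 5 named genes it lay away from the start. A strong TSS element was not particular to IGDB17918, since that of tfap2c had a score of 185. Of the 5 named genes, only tfap2d was itself the closest gene to the strongest element of its window.

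Elements closest to an AP-2 gene made up 93 of the 174, or 53.4%, a share not computed for other TF genes. They numbered 27 for tfap2a, 23 for tfap2d, 22 for tfap2c, 13 for tfap2b, 7 for tfap2e and 1 for IGDB17918. By this count tfap2e, second in the number of elements, was the fifth, and tfap2c and tfap2d were close to tfap2a.

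By position, 45 of the 174 elements (25.9%, interval 19.9 to 32.8%) were distal, beside 15.5% of the elements of all TF genes, and 25 (14.4%) were proximal, within 5 kb of a gene, beside 9.83%. Inside gene bodies lay 61 (35.1%, TF genes 46.4%), and within 1 kb of a gene end lay 43 (24.7%, TF genes 28.3%). Distal elements were found at tfap2c (14), tfap2d (14), tfap2a (12) and tfap2b (10), and at IGDB17918 (2), with elements in both windows of the tfap2b-tfap2d pair counted for each gene. The 4 genes with many distal elements are those beside long stretches without other protein-coding genes. This follows from the definition, since many elements can lie over 5 kb from any gene only in such stretches. Over the whole family, distal elements had a median score of 35.1, between the 47.2 of elements at gene ends and the 24.6 of elements in gene bodies. Elements of a locus share their surroundings, and the intervals do not cover this.

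In median score and in the share of strong elements, the AP-2 elements resembled those of other TF genes. The merged peaks of the strong elements are given beside those of TF genes, without a test. The median score of the AP-2 elements was 32.0 (quartiles 15.1 and 69.8), beside 34.9 for the 33373 elements of all TF genes and 30.8 for all elements. The medians of the single genes ran from 25.1 in tfap2b to 41.5 in tfap2e. A score of at least 100 was reached by 33 of the 174 elements (19.0%) and by 19.0% of TF elements. Of these 33, 2 lay within 1 kb of an AP-2 TSS, where 9 of the 174 elements lay, and 10 were distal, as were 45 of the 174. Of the 33, 14 (42.4%) had 9 or more merged peaks and 5 (15.2%) fewer than 4, beside 55.9% and 4.29% of the TF elements with such scores. Both AP-2 shares rest on only 33 elements, and no interval was computed for them. The 5 with fewer than 4 peaks, each from 3 peaks, were 202 inside tfap2c, 170 upstream of tfap2d and 137, 130 and 110 around tfap2a. Most of them thus lay in the window of tfap2a alone.

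Elements from a single peak made up 30.5% (53 of 174, interval 24.1 to 37.7%), beside 25.6% of TF elements and 27.7% of all elements. Elements of 9 or more merged peaks made up 13.2% (23 of 174, interval 9.0 to 19.1%), beside 14.8% and 12.5%. Both intervals contain the shares of TF elements. In tfap2a 4 of 50 elements (8.0%, interval 3.15 to 18.8%) had 9 or more merged peaks, and this interval contains the share of TF elements as well.

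**Figure D5:**
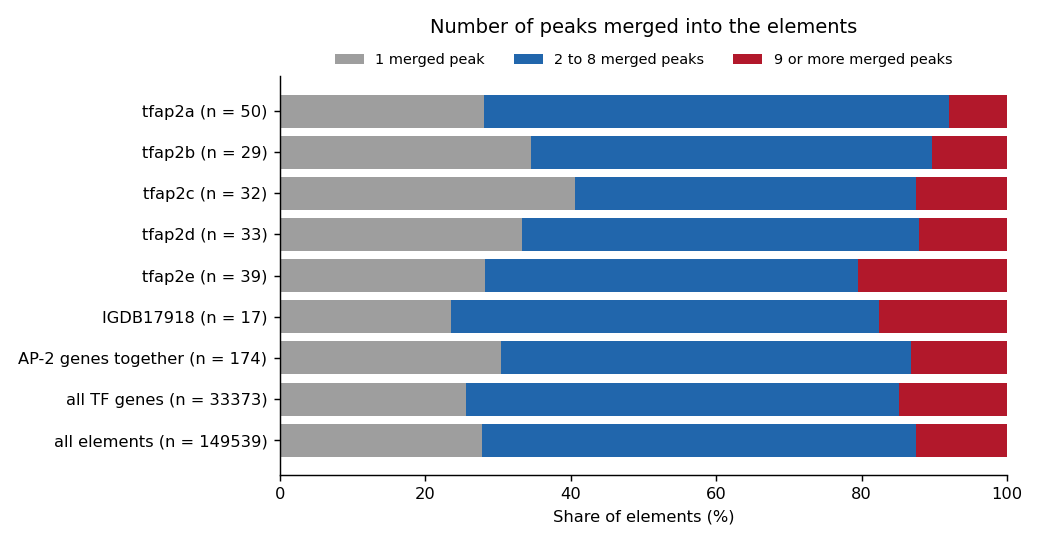
Share of elements by number of merged peaks for each AP-2 gene, for the family together, for all TF genes and for all elements (x axis, percent; n, number of elements). Elements of 9 or more merged peaks (red) range from 8.0% in tfap2a to 20.5% in tfap2e, around the 14.8% of all TF genes.

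Other TF families counted in the same way gave medians on both sides of the AP-2 genes. COE genes, which act in neurons and B cells, had a median of 42 elements (6 genes, 28 to 58), PAX genes 34 (13 genes, 22 to 53) and Runt genes 28.5 (4 genes, 11 to 32). Among the 37 families with at least 6 genes, the AP-2 median was the 7th highest. The shares of elements from a single peak were 32.5% in COE, 28.0% in Runt and 25.2% in PAX genes, around the 30.5% of AP-2 genes.

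A list of 44 symbols of TFs that act at the neural plate border, in the neural crest or in its derivatives gave 55 medaka genes, with a median of 31 elements (11 to 64), close to the 32.5 of the AP-2 genes and above the 25 of all TF genes. Such a median is not particular to crest genes. Large TF families had medians of 30 (forkhead), 29 (homeobox), 28 (bHLH) and 25 (HMG), and the 578 C2H2 zinc finger genes had 19.5. Border genes such as pax3 had a median of 37 (19 genes), crest specifiers 38 (20 genes) and genes of the derivatives 27.5 (16 genes). At or above 32.5 elements were 12 of 19, 11 of 20 and 3 of 16, beside 25.2% of all TF genes. Neighboring genes in these groups, such as dlx5a and dlx6a or dlx1a and dlx2, share most of their windows. The same elements are then counted for both genes. The most elements were found around sox5 (64), Mycn (57) and id3 (54), and the fewest around mitfa (11), the regulator of melanophores. tfap2a with 50 elements was thus behind these 3 genes, and tfap2c with 32 lay within the range of the list. Elements anywhere inside a gene are counted, so a gene that reaches beyond 50 kb from its TSS is counted over more sequence. The lengths of the compared genes, here and in the family medians, were not taken into account. Of 4 symbols of proteins that inhibit or assist AP-2 factors, 2 were found, kctd1 and kctd15, with 42 and 38.5 elements averaged over the counts at their first and last base. KCTD15 is known to inhibit AP-2 in the neural crest.

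The spread of elements over the window was compared with that of every other TF gene, as the Euclidean distance between the counts in 10 bins of 10 kb. The closest patterns were Pou3f1 for tfap2a (distance 4.58, 47 elements), tox for tfap2b (4.47, 35 elements), runx3 for tfap2c (3.87, 31 elements), mafbb for tfap2d (3.32, 28 elements), LOC101163436 for tfap2e (2.45, 37 elements) and NR2E3 for IGDB17918 (3.0, 10 elements). Each belongs to a different family, and each match rests on the 10 bins of a single pooled list. Gene names can recur in the TF list, and here Pou3f1 is IGDB16024 and NR2E3 is IGDB07195. Any gene has a closest match, and no background of distances was computed. The distances therefore do not show that a match is unusually close.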

How the data were processed

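According to the submitters' processing notes and the methods, reads were trimmed (Trimmomatic 0.36) and mapped to the Hd-rR genome (Bowtie2 2.3.4.1), and the authors called peaks with MACS2 2.1.2 on the merged replicates of each stage. Picard, bedtools and deepTools are also named. Peaks with −log q above 7 were merged over stages. The deposited score is read as −log10 of the q-value, and how it was combined over merged peaks is not given in the sources used here. The deposited whole number beside it is read as the number of merged peaks.

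TSSs (start on plus, end on minus strand) and families came from the study's TF list, and neighbors from RefSeq protein-coding genes (ASM223467v1). BED starts were read as 0-based, and coordinates are printed 1-based. Counts were computed with Python 3.11.15, NumPy 2.4.6, pandas 2.3.3 and SciPy 1.17.1, and drawn with Matplotlib 3.10.9. On simulated data 200 of 200 counts were recovered. Intervals are 95% Wilson intervals.

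All 6 members were named, with their neighbors and genes holding elements of the window, the 3 crest genes with the most and the 1 with the fewest elements, the closest pattern per member, and per member the TSS element, the 5 highest scores and elements of 9 or more peaks. Other elements, pax3 and further numbers of elements inside members were named after their values were seen. Members and lists were chosen with earlier results of these data known. Sequences and motifs were not analysed here.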

Additional observations from a re-analysis of the deposited data

How the results depend on the processing

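The median of the AP-2 genes stayed above that of all TF genes in the 6 alternatives that were also run on all TF genes, by 7.5 elements as reported, 2.5 (25 kb window), 7 (100 kb), 7.5 (any overlap), 3.5 (scores of at least the overall median), 1.5 (at least 2 merged peaks) and 6.5 (elements less than 500 bp apart merged). The counts themselves moved with the window. With 25 kb they were 31 for tfap2a, 15 for tfap2b, 14 for tfap2c, 18 for tfap2d, 19 for tfap2e and 9 for IGDB17918 (median 16.5). With 100 kb they were 78 for tfap2a, 65 for tfap2c, 76 for tfap2e and 36 for IGDB17918 (median 54), and 43 each for tfap2b and tfap2d, below the median of 47 over TF genes. Scores of at least the overall median left 23, 13, 17, 16, 22 and 9 elements (tfap2a to tfap2e, then IGDB17918; median 16.5), and at least 2 merged peaks left 19 for tfap2b and 19 for tfap2c (median 20.5). Merging elements less than 500 bp apart left 35, 25, 23, 28, 33 and 16 in the same order (median 26.5). tfap2a stayed ahead of tfap2e in each setting, but in some only narrowly. The counts were 78 and 76 with 100 kb, 23 and 22 with scores of at least the overall median, and 35 and 33 after merging. tfap2b kept 14 and tfap2d 22 elements when each counted only for the closest AP-2 TSS. This gave a family median of 27, not compared with TF genes. The share of TF genes with fewer elements ranged from 88.0 to 96.8% for tfap2a, 74.5 to 93.6% for tfap2e, 41.1 to 82.7% for tfap2d, 48.2 to 82.6% for tfap2c, 41.1 to 71.6% for tfap2b and 23.3 to 30% for IGDB17918. The order of tfap2b, tfap2c and tfap2d is therefore not fixed. RefSeq starts, tried after seeing the data with strands from the TF list, changed tfap2c to 31 and no other count (median 32, not compared with TF genes). The motif alternative was not run, as no sequence was used here. No paired analysis was possible because no result here comes from a test and the list used pools all libraries (coverage tracks were not used). The depth is unknown, so an unlisted region is below the peak threshold, not shown to be closed.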
